A study of Mus musculus with 12 samples.

Results

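The genes described here are 10 genes of DNA replication and mitosis: Mcm2, Mcm3, Mcm4, Mcm5, Mcm6 and Mcm7, Pcna, Cdc20, Top2a and Mki67. They were taken by gene symbol and not by any measured value, and every non-control probe annotated to one of them was used. Of the 10 genes, 9 had a probe, against 17016 genes with a probe on the whole array, and they accounted for 10 of the 41174 non-control probes because Top2a had 2. Mki67 was not matched to a probe and was not analysed here. Only 6 of the 10 genes (Mcm2, Mcm4, Mcm6, Mcm7, Pcna and Cdc20) were bright enough in islet RNA to be among the 3920 genes tested for a strain difference, and all 6 passed that brightness filter through NOD arrays alone. A spot is called bright below where the scanner software marked it as well above its background, and a gene was tested where that held for its islet signal on 4 or more arrays.

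The study set pancreatic islets of 6 NOD samples against those of 6 NOD.B10 samples, all from female mice 12 weeks old, with no treatment named in the labels. NOD is an inbred strain in which leukocytes infiltrate the islets and autoimmune diabetes follows, and NOD.B10, the healthy control strain of the study, carries B10-derived DNA on the same NOD background. Islets were cut out of frozen pancreas sections by laser, sections of at least 40 islets were pooled per sample, and the RNA was amplified, labelled with Cy5 and hybridised beside a Cy3-labelled universal mouse RNA on 2-colour arrays. The dyes were never swapped, so each ratio is islet RNA over the same reference, and each sample is a mixture of whatever cells lay within the cut outline. In such bulk RNA, more cells of a type and more RNA per cell cannot be told apart.

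The MCM proteins form a ring-shaped helicase that is loaded at replication origins before S phase and then unwinds DNA ahead of the fork. PCNA is the sliding clamp that keeps the replicative polymerases on the template. CDC20 activates the anaphase promoting complex so that sister chromatids can separate, TOP2A untangles those chromatids, and MKI67 coats mitotic chromosomes. Transcripts of these genes are abundant in dividing cells and scarce in resting ones, and adult beta cells divide rarely whereas activated lymphocytes divide fast.

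The promoters of 4 of the tested genes are shown as examples of the words searched: that of Mcm6 holds E2F type words, those of Mcm2 and Cdc20 hold a CHR type word, that of Pcna holds neither, and each holds a CCAAT box. RefSeq (GRCm38.p6) gave a promoter for 9 of the 10 genes, with 2 starts for Mcm7 and none for Mcm4. Each line gives the 250 bases before the annotated start, in the direction of transcription, and capitals mark matches on either strand to the words searched. Overlapping matches run together. The first sequence lies at chr1:128359706-128359955, the second at chr6:88898781-88899030, the third at chr2:132253181-132253430 and the last at chr4:118437344-118437593, all on the minus strand.
Mcm6: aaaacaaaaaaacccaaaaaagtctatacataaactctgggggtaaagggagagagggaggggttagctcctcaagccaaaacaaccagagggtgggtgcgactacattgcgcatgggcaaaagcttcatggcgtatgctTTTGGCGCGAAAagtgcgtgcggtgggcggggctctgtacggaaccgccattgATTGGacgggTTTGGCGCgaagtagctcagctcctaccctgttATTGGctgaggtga
Mcm2: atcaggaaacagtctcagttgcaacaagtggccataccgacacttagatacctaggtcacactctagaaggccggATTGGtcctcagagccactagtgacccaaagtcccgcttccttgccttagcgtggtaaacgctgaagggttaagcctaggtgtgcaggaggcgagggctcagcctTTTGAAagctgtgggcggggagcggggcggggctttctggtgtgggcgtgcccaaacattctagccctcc
Pcna: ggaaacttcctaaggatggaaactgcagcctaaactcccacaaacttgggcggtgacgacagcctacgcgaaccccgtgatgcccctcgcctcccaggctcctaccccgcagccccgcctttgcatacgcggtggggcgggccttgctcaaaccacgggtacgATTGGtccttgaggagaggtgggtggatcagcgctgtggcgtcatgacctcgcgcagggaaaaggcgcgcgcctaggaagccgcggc
Cdc20: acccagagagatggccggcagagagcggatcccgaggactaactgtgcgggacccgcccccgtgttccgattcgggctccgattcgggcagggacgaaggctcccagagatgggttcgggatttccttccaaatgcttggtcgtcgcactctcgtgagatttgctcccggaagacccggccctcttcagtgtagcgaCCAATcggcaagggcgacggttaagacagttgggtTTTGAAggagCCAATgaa
The words were searched on both strands in windows from 250 bases before to 50 bases after each start. The E2F type words (TTTCGCGC, TTTGGCGC, TTTCCCGC and TTTGCCGC) are bound by E2F factors, which drive genes of S phase, and they occurred in 2.26% of 32851 promoters and in 4 of the 9 genes (Mcm3, Mcm5, Mcm6 and Mcm7). The CHR type words (TTTGAA and TTCGAA) are bound by the complex that times genes of G2 and mitosis, and they occurred in 19.2% of promoters and in 5 of the 9 genes (Mcm2, Mcm7, Cdc20, Top2a and Mki67). The CCAAT box, bound by NF-Y, occurred in 37.4% of promoters and in 9 of the 9 genes. Mcm6 held 3 E2F type matches before its start, of which the pair beginning at -110 and at -106 overlap and the third begins at -47. Cdc20 held a CHR type match from -18 to -13, between CCAAT boxes that begin at -53 and -8, and Mcm2 held a CHR type match from -70 to -65. Pcna held only a CCAAT box, at -87. These are matches of letters and not tested binding sites.

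**Figure D1:**
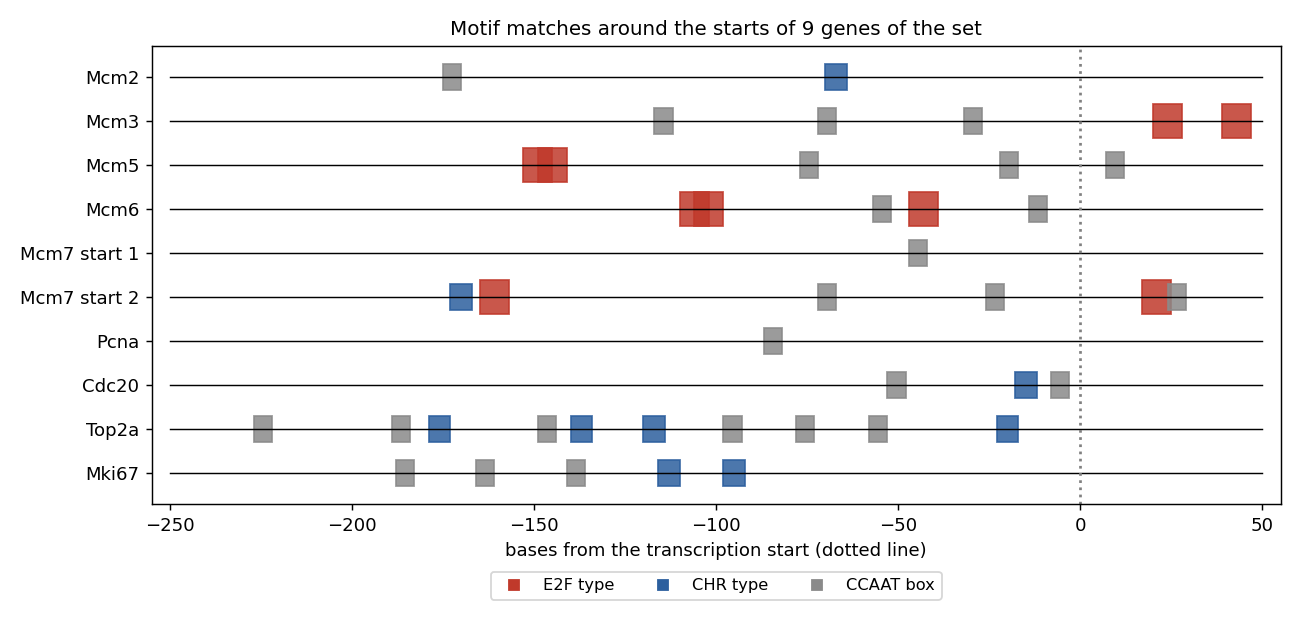
Position of each match, in bases from the transcription start (dotted line), for 10 RefSeq promoters of 9 genes, one row per promoter, with E2F type words in red, CHR type words in blue and CCAAT boxes in grey. Mcm6 and Mcm5 show overlapping E2F type matches before the start, and Top2a and Mki67 show CHR type matches and CCAAT boxes only.

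The arrays differed in overall brightness between strains. Between 10.65 and 17.32% of spots were well above background in Cy5 on NOD arrays and between 3.956 and 7.879% on NOD.B10 arrays, so that the strains did not overlap (14.04% ± 2.55 against 6.21% ± 1.37; SD, n = 6 each; exact 2-sided permutation p = 0.00216, the smallest that 12 arrays allow). The islet label held as far as the hormone genes go: the 6 tested beta cell markers, among them Ins1, Ins2 and Iapp, averaged a log2 ratio of 4.96 ± 1.14 in NOD, against 6.59 ± 0.39 in NOD.B10 (exact 2-sided permutation p = 0.013, Benjamini-Hochberg 0.0204). Of these 6 markers, 3 were called lower in NOD. Mafa, Pdx1, Slc30a8, Ucn3 and Glp1r were above background on no array. The 7 tested of 12 markers of the exocrine acinar cells that surround the islets averaged a log2 ratio of -0.87 ± 1.37 in NOD, against 2.02 ± 2.25 in NOD.B10 (SD, n = 6 each; exact 2-sided permutation p = 0.0173, Benjamini-Hochberg 0.0238), and 5 of the 7 were called lower in NOD; the part of this in the results was not tested. Slide 1 held NOD 1 and NOD 2 only and slide 4 held NOD.B10 2 and NOD.B10 3 only, and the other 2 slides held 2 arrays of each strain. Slide 4 was also scanned on a different day from all other arrays, so its slide and scan day cannot be told apart. Over all genes tested, 738 were higher in NOD (18.8%) and 705 lower (18%), by limma with Benjamini-Hochberg adjustment at 0.05.

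All 6 tested replication and mitosis genes were called higher in NOD islets, where 18.8% of all tested genes and 28.8% of the 1217 tested genes with no bright NOD.B10 array were called higher. Among those 1217 genes, 9.37% were called lower. Since each of the 6 had to be bright in NOD to be tested, this count is a description. None of the 6 was well above background on any NOD.B10 array, so for these genes the NOD.B10 level is only a bound. The log2 difference was 2.22 ± 0.32 (SE) for Mcm6, 0.58 to 0.71 for Mcm4, Cdc20 and Mcm7 and about 0.3 for Pcna and Mcm2, and these sizes are not ranked across probes, since each is set against a floor. With no filter, over all 41174 probes, the same 6 of the 10 probes were called higher, where 2.22% of all probes were called higher and 4.03% lower.

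Net Cy5 is the islet signal of a spot minus its local background, in scanner units, averaged over the spots of a probe; among probes dark in both channels, the 2.5 and 97.5 percentiles of net Cy5 lay between -5.5 and -5 and between 6 and 8. The log2 ratio is Cy5 over Cy3 after background correction and loess, and it understates differences of dim spots because 50 units were added to both channels. Net Cy5 is not corrected for array brightness. Over the 1083 probes bright in Cy5 on every array, its median averaged 127.6 on NOD and 36.42 on NOD.B10 arrays. Ccng1, called lower in NOD by the log2 ratio, had a net Cy5 of 10.5 to 22.5 in NOD and 1 to 9 in NOD.B10. The share of all tested genes whose net Cy5 did not overlap between strains was not taken. A bound on the fold, written as "at least", sets the mean Cy5 in NOD against a floor in NOD.B10, which per array is the lowest normalised Cy5 of any probe well above background, or the probe's own where that was higher. Normalisation used both channels, so the reference signal enters the bound, which without dye swaps is open to dye bias. For Mcm6, Mcm4, Mcm7 and Cdc20 the bound was unchanged with the 10th percentile of bright signals as the floor. Their own NOD.B10 signal, not well above background, therefore set it. No bound is given for Pcna, since the value exceeded the fold of the log2 ratio.

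Mcm6 (chromosome 1) encodes a subunit of the helicase ring. Its net Cy5 ran from 50.5 over a median of 207 to 522 in NOD, against 2, 4.5 and 11.5 in NOD.B10. Every NOD array was well above background and above every NOD.B10 array, and the 6 NOD.B10 values lay at or close to the range of dark probes. The log2 ratio averaged 1.91 ± 0.85 in NOD, against -0.31 ± 0.20 in NOD.B10 (SD, n = 6 each), which made Mcm6 at least 3.77-fold higher in NOD (limma adjusted p = 0.000283). Its reference signal was strong and similar on all arrays, with net Cy3 between 1870 and 2857.

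Mcm4 (chromosome 16), another ring subunit, had a lowest, median and highest net Cy5 of 17, 49.75 and 111 in NOD and of -3.5, 4.5 and 11 in NOD.B10. All 6 NOD arrays were well above background, and the strains did not overlap in net Cy5, although on the log2 scale NOD 5 fell below the highest NOD.B10 array. The log2 ratio averaged 0.57 ± 0.28 in NOD, against -0.14 ± 0.19 in NOD.B10, a difference of 0.71 ± 0.14 (SE), and Mcm4 was at least 1.51-fold higher in NOD (limma adjusted p = 0.00171).

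Mcm7 (chromosome 5), which with Mcm4 and Mcm6 makes the core of the ring, had a lowest, median and highest net Cy5 of 10.5, 47.25 and 123 in NOD and of 0, 3.25 and 4 in NOD.B10. The single NOD array not well above background was NOD 5, which was also the only one to fall among the NOD.B10 arrays on the log2 scale. The log2 ratio averaged 0.28 ± 0.39 in NOD, against -0.29 ± 0.07 in NOD.B10, and the gene was at least 1.33-fold higher in NOD (limma difference 0.58 ± 0.16 SE, adjusted p = 0.0125). Its reference signal was not even: net Cy3 was 1929 to 2050 on the slide that held only NOD.B10 and 973 to 1532 on the other slides.

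Mcm2 (chromosome 6), the subunit that also chaperones histones at the fork, was close to background in both strains. Net Cy5 was 4, 11.5 and 18 at its lowest, median and highest in NOD, against -2, 2.25 and 4 in NOD.B10, and only 4 of 6 NOD arrays were well above background. NOD 5 tied with the 2 highest NOD.B10 arrays, and the other 5 NOD arrays lay above all of them. Net Cy3 of Mcm2 was 191.5 to 231 on the slide that held only NOD.B10 and 101 to 177 elsewhere. The log2 difference was 0.29 ± 0.10 (SE; limma adjusted p = 0.0359), or at least 1.10-fold, and no bound above 1 remained when the floor was the 10th percentile of bright signals in place of the lowest. With median centring in place of loess the difference was 0.37, below the shift of 0.44 that the median of all genes took on that scale. The call was also lost when any 1 of NOD 1, NOD 2, NOD 6 and NOD.B10 1 to 4 was left out, with adjusted p between 0.0129 and 0.0831 over the 12 such fits.

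Mcm3 (chromosome 1) and Mcm5 (chromosome 8), which complete the ring, were well above background in islet RNA on no array of either strain. Net Cy5 of Mcm5 reached 7 in NOD and 2.5 in NOD.B10, and that of Mcm3 reached 5 in NOD and 3 in NOD.B10. The Mcm3 probe was also dark in the reference RNA on all 12 arrays. The Mcm5 probe did light up in the reference, with net Cy3 between 24 and 50, and its difference of 0.19 on the log2 scale did not pass (limma adjusted p = 0.190 over all probes, 0.0208 before adjustment). The subunits therefore could be compared for 4 of the 6 ring members, and at these signals a difference in the remaining pair was not detectable.

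**Figure D2:**
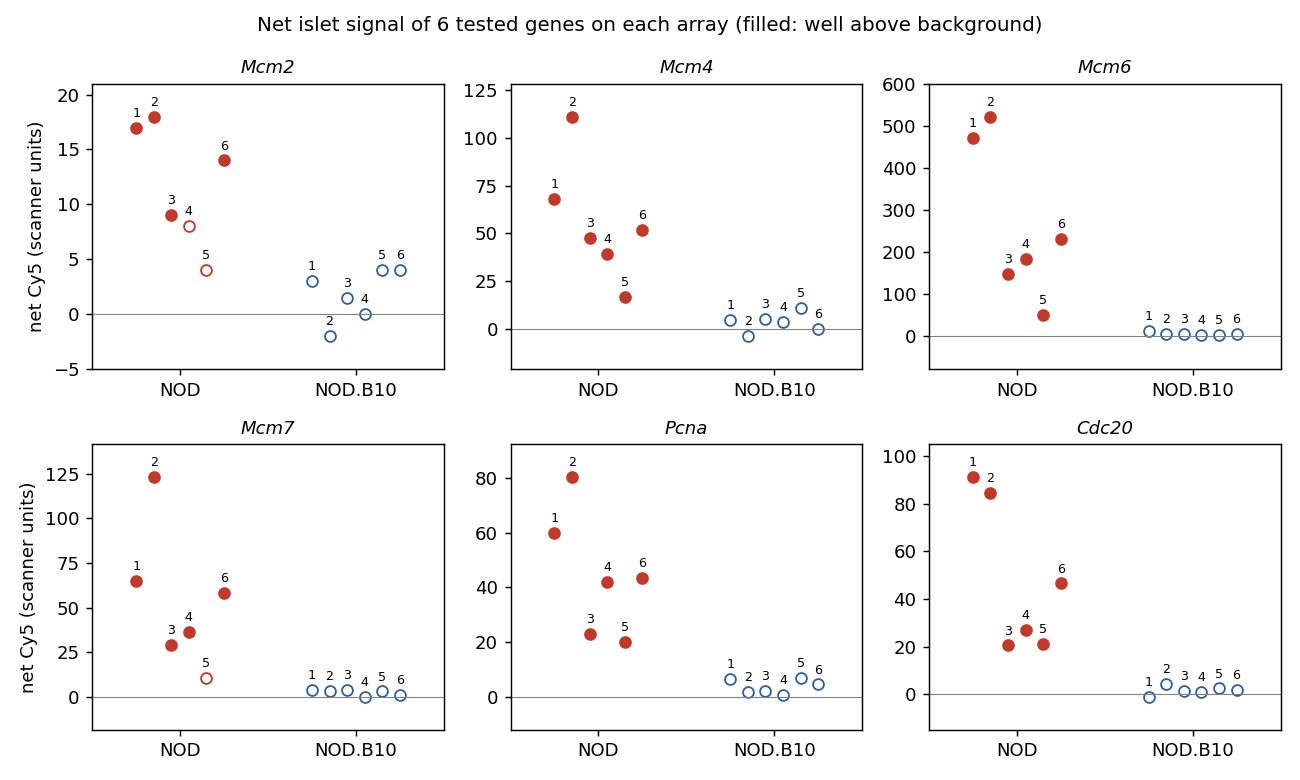
Net Cy5 (islet signal minus local background, scanner units) on each array for the 6 tested genes, with NOD at the left in red and NOD.B10 at the right in blue, the sample number above each point, and filled points for spots well above background. No NOD.B10 point is filled, and for the genes other than Mcm2 every NOD point lies above every NOD.B10 point. The genes were tested through NOD arrays alone and net Cy5 is not corrected for array brightness, so this is a description. The share of all tested genes with this pattern was not taken.

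Pcna (chromosome 2), the clamp, was measured by 10 spots of 1 probe on each array, of which 6 to 10 were used once outlier spots were left out. Its net Cy5 was 19.9, 42.7 and 80.25 at its lowest, median and highest in NOD, against 0.778, 3.36 and 6.78 in NOD.B10. All 6 NOD arrays were well above background, and the strains did not overlap in net Cy5. On the log2 scale the averages were 0.13 ± 0.17 in NOD, against -0.18 ± 0.08 in NOD.B10 (SD, n = 6 each), a difference of 0.31 ± 0.10 (SE; limma adjusted p = 0.0248). The log2 ratio of the spots of one array varied with an SD of 0.056 to 0.272, the highest on NOD 1. The reference channel differed here too, with net Cy3 of 743 to 840 on the slide that held only NOD.B10 and 1151 to 1484 elsewhere. The Pcna call was lost without NOD 1, NOD 4 or NOD.B10 4, with adjusted p between 0.00832 and 0.059 over the 12 fits. With median centring the Pcna difference was 0.51 (limma adjusted p = 0.0301), only 0.07 above the median of all genes on that scale.

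Cdc20 (chromosome 4), the mitotic activator, had a lowest, median and highest net Cy5 of 20.5, 36.75 and 91 in NOD and of -1, 1.75 and 4.5 in NOD.B10. Every NOD array was well above background and above every NOD.B10 array, on the net scale and on the log2 scale. The log2 ratio averaged 0.37 ± 0.42 in NOD, against -0.24 ± 0.11 in NOD.B10, and Cdc20 was at least 1.44-fold higher in NOD (limma difference 0.61 ± 0.17 SE, adjusted p = 0.0133). Cdc20 and Mcm6 were the 2 members whose log2 ratios did not overlap between strains, which held for 9.59% of all tested genes and for 14.9% of those with no bright NOD.B10 array.

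Top2a (chromosome 11), the chromatid untangling enzyme, was above background in islet RNA on no array with either probe. Its first probe gave net Cy5 of -3.5 to 2 in NOD and -3 to 3 in NOD.B10, with a log2 difference of -0.03 (limma adjusted p = 0.931 over all probes), although the reference lit that probe on 10 of 12 arrays at net Cy3 of 16 to 25.5. The second probe was dark in the reference on all 12 arrays and gave a log2 difference of -0.09 (adjusted p = 0.504). Neither value measures a Top2a level in islets, so of the late cell cycle members Cdc20 alone had values to compare.

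**Figure D3:**
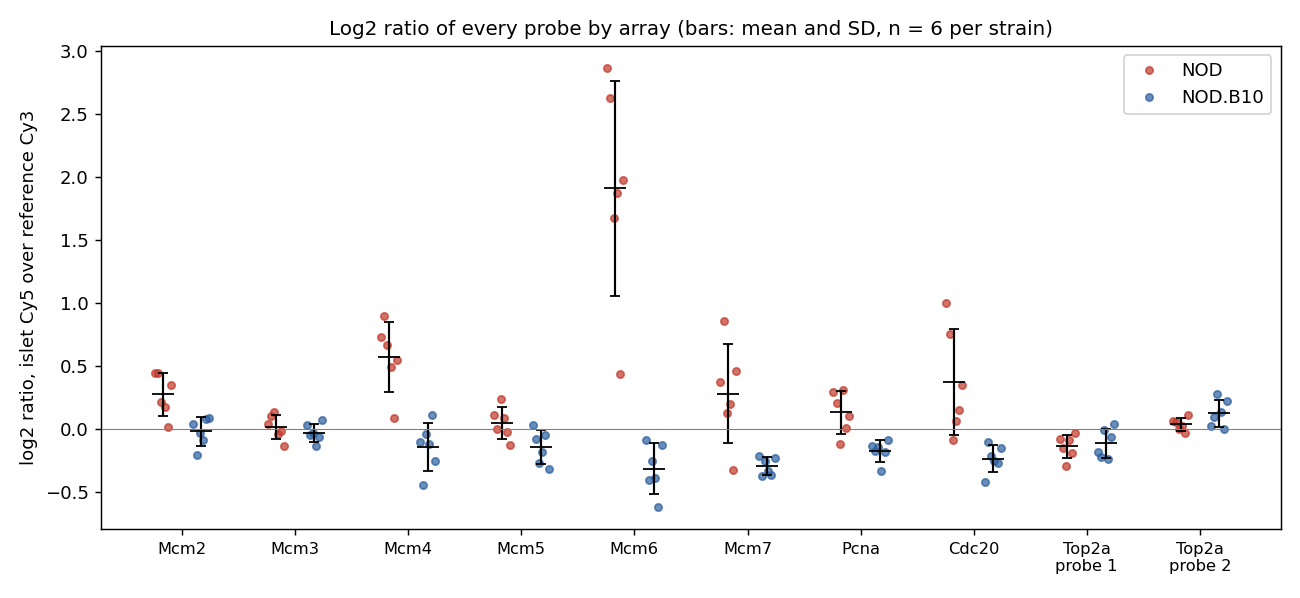
Log2 ratio of islet Cy5 over reference Cy3 for each of the 10 probes, one point per array, NOD (red) left of NOD.B10 (blue), with bars at the mean and SD (n = 6 per strain). Mcm6 averages 1.91 in NOD and -0.31 in NOD.B10, and the Mcm3, Mcm5 and Top2a probes, dark in islet RNA on all arrays, lie near 0 in both strains.

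Since NOD arrays were brighter altogether, each net Cy5 value was also divided by the array's median net Cy5 over the 1083 probes lit in Cy5 on every array. On that relative scale Mcm6 was 1.89 ± 0.772 in NOD, against 0.149 ± 0.095 in NOD.B10 (SD, n = 6 each), and Mcm4 was 0.414 ± 0.0943 in NOD, against 0.0917 ± 0.115 in NOD.B10. Mcm7 was 0.377 ± 0.147 in NOD, against 0.0691 ± 0.0442 in NOD.B10. Cdc20 was 0.353 ± 0.124 in NOD, against 0.0505 ± 0.0474 in NOD.B10, and Pcna was 0.342 ± 0.0776 in NOD, against 0.106 ± 0.0686 in NOD.B10. The lowest NOD and highest NOD.B10 values were 0.743 and 0.28 for Mcm6, 0.25 and 0.224 for Mcm4 and 0.154 and 0.125 for Mcm7. They were 0.202 and 0.112 for Cdc20 and 0.226 and 0.196 for Pcna. All these NOD.B10 values are signals not well above background, divided by brightness. The share of all tested genes without overlap on this scale was not taken. Since each of the 5 was tested through NOD arrays alone, these values are a description. Mcm2 was 0.0884 ± 0.0171 in NOD, against 0.0543 ± 0.0765 in NOD.B10, and its strains overlapped.

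The slide moved the size of most of these differences but not their sign. Within slide 2, with 2 arrays of each strain, Mcm6 was higher in NOD by 2.01 on the log2 scale (limma adjusted p = 0.0377), Mcm4 by 0.69, Mcm7 by 0.44, Pcna by 0.33, Cdc20 by 0.32 and Mcm2 by 0.22, the last 5 not passing. Within slide 3, also 2 against 2, the differences were 1.58 for Mcm6, 0.46 for Cdc20, 0.39 for Mcm4, 0.36 for Mcm7, 0.19 for Pcna and 0.10 for Mcm2, none passing (1 of the 6 at an unadjusted p under 0.05), and in that subset 1 gene of the whole table was called higher and 1 lower. With slide as a block in the fit over all arrays, Mcm6 (1.80, adjusted p = 0.00323), Mcm4 (0.54, 0.0398) and Cdc20 (0.39, 0.0419) passed and Mcm7, Pcna and Mcm2 did not, while 364 genes were called higher and 349 lower. NOD 1 and NOD 2, which shared slide 1, had the 2 highest net Cy5 values of all arrays for each of the 6 genes, and they were also the 2 brightest arrays.

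For all 6 tested genes the SD of the log2 ratio was larger among NOD than among NOD.B10 arrays, where the genes were at background. The log2 ratio of Mcm6 ran from 0.44 in NOD 5 over 1.68, 1.87, 1.98 and 2.63 in NOD 3, NOD 4, NOD 6 and NOD 2 to 2.87 in NOD 1. Of the 6 tested genes, NOD 5 had the lowest log2 ratio for 4 (Mcm2, Mcm4, Mcm6 and Mcm7) and NOD 3 for 2 (Pcna and Cdc20). NOD 1 was the highest for 3, NOD 2 for 2 and NOD 4 for 1. NOD 5 and NOD 3 also had the lowest leukocyte signals and the fewest bright spots.

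The leukocyte signal of an array was the mean log2 ratio of 14 leukocyte genes, those tested out of a list of 20, and all 14 were higher in NOD. It was 2.16, 2.82, 1.26, 2.31, 0.93 and 2.26 in NOD 1 to NOD 6 and lay between -0.25 and -0.05 in NOD.B10, a difference of 2.12. Of the 14, 11 were bright on no NOD.B10 array and so were tested through NOD alone, which makes this difference a description. Lsp1 and Ptpn6 of that list were above background on no array, and Cd53, Cd37, Tyrobp and Itgb2 on 1 to 3 arrays. Ptprc, the CD45 phosphatase of all leukocytes, had a net Cy5 of 195 to 1536 in NOD and 0.1 to 4.5 in NOD.B10 and was at least 10.4-fold higher in NOD (limma adjusted p = 1e-05). The mean log2 ratios of B and plasma cell genes (6 of 12 tested; 1.08 to 2.88 in NOD, -0.29 to -0.11 in NOD.B10), T cell genes (4 of 12 tested; 0.57 to 2.33 in NOD, -0.20 to 0.01 in NOD.B10) and macrophage genes (6 of 12 tested; 1.17 to 1.78 in NOD, -0.22 to 0.06 in NOD.B10) are descriptions too, since all 6 B and plasma cell genes, all 4 T cell genes and 2 of the 6 macrophage genes were bright on no NOD.B10 array. Defining genes such as Cd79a, Pax5, Cd3e, Cd3g, Cd4 and C1qa were above background on no array, so these means rest on the brighter markers. Of the 6 macrophage genes, 5 were called higher, Lyz2 by the most (4.07), and Adgre1 was not called (-0.07, limma adjusted p = 0.717). Which cells the replication transcripts came from was not tested.

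The relation of the 6 genes to the leukocyte signal could be computed within NOD only, since no member was bright in NOD.B10. Over the 6 NOD arrays, Pearson r was positive for all 6 genes, and none of the 6 relations passed after Benjamini-Hochberg adjustment. Mcm7 came closest, with r = 0.909 (exact permutation p = 0.00972, adjusted 0.0583) and Spearman rho = 0.829 (exact permutation p = 0.0583), and r was 0.866 without NOD 5 and NOD 3, the 2 arrays farthest from the median leukocyte signal. Mcm6 had r = 0.818 (exact permutation p = 0.0389, adjusted 0.117) and rho = 0.6 (p = 0.242), but r = 0.204 without those 2 arrays, so that relation rests on them. Mcm2 gave r = 0.781 (exact permutation p = 0.0722, adjusted 0.118; rho = 0.429, p = 0.419), which came to 0.293 without them.

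Mcm4 gave r = 0.721 (exact permutation p = 0.0986, adjusted 0.118; rho = 0.486, p = 0.356) and kept 0.708 without those arrays. Pcna gave r = 0.753 (exact permutation p = 0.0847, adjusted 0.118; rho = 0.657, p = 0.175) and -0.196 without them. Cdc20 had the weakest relation, r = 0.586 (exact permutation p = 0.201, adjusted 0.201; rho = 0.314, p = 0.564), and 0.14 without them. The highest Cdc20 ratio was in NOD 1, which ranked below NOD 2, NOD 4 and NOD 6 in leukocyte signal, and the Cdc20 ratio of NOD 4, second in leukocyte signal, was 0.06.

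Leukocyte signal and overall brightness moved together within NOD (r = 0.848 between leukocyte signal and the share of bright spots, exact permutation p = 0.0333, rho = 0.771, p = 0.103). In NOD.B10 r was -0.622 (exact permutation p = 0.183) and rho -0.371 (p = 0.497). Of the 14 leukocyte genes, 11 were bright on no NOD.B10 array, so no relation is read from those values. Given the share of bright spots, the partial r with leukocyte signal was 0.618 for Mcm7, 0.607 for Pcna, 0.154 for Mcm6, -0.02 for Mcm4, -0.337 for Mcm2 and -0.517 for Cdc20, none passing. Each slide held at most 2 NOD arrays, too few for a value within slides. Because neither measure overlapped between strains, strain, brightness and leukocyte signal cannot be told apart in the strain difference: with either of them as a covariate, none of the 6 genes passed, nor did any at an unadjusted p under 0.05.

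**Figure D4:**
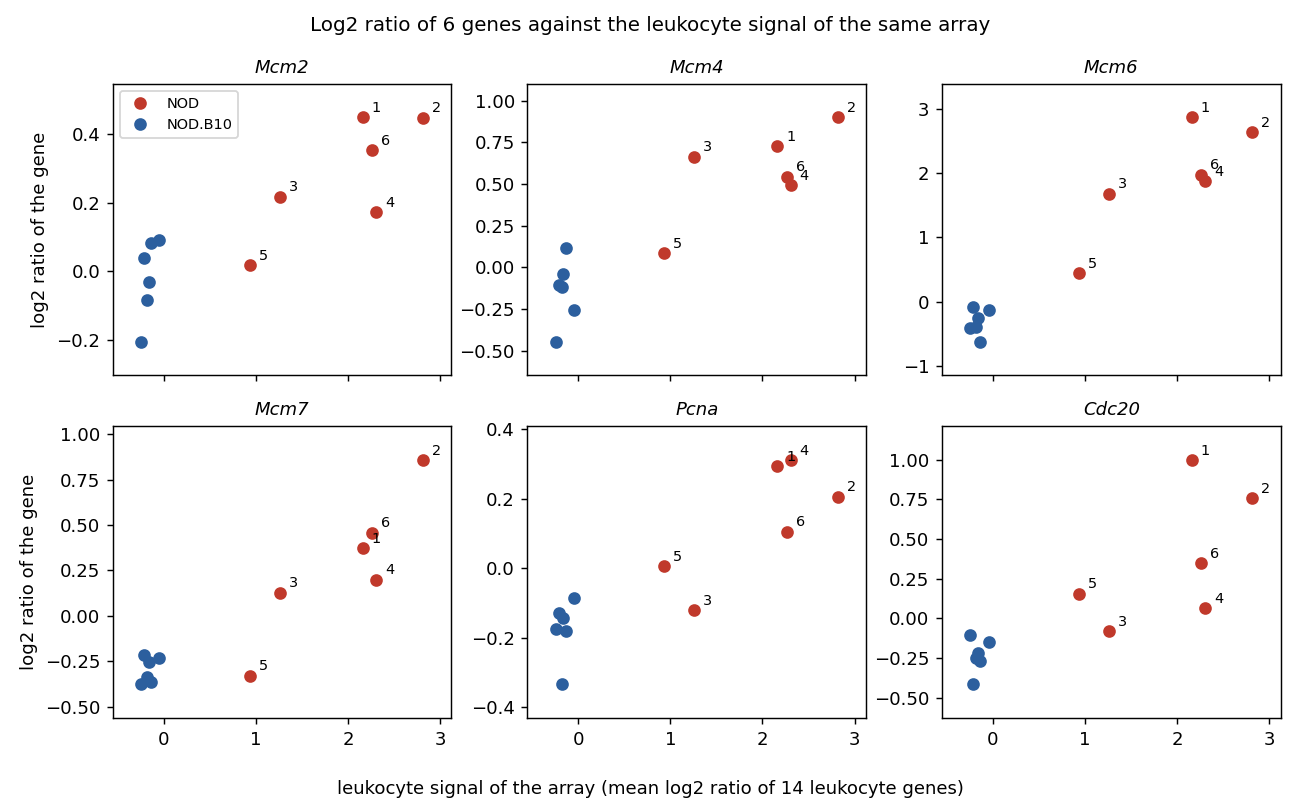
Log2 ratio of each tested gene (vertical axis) against the leukocyte signal of the same array (horizontal axis, mean log2 ratio of 14 leukocyte genes), with NOD in red and numbered and NOD.B10 in blue. NOD.B10 arrays cluster between -0.25 and -0.05 on the horizontal axis, and among NOD arrays Mcm7 follows the leukocyte signal most closely (r = 0.909).

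The wider cell cycle machinery was described with 7 further lists of 158 genes, of which 154 had a probe and 53 were bright enough to test. Of the 53, 15 were higher in NOD, 3 were lower and 35 did not pass, where 18.8% of all tested genes were called higher and 18% lower, with a median log2 difference of 0.25, against a median of -0.01 over all tested genes and 0.14 over those with no bright NOD.B10 array. Of the 53 genes, 31 had no bright NOD.B10 array, a class in which 28.8% of all genes were called higher, so the count is read as a description and not as particular to these lists.

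Around the helicase, origin licensing had 4 of 23 genes tested and 1 called. That gene was Cdt1, which loads the MCM ring onto origins: its log2 difference was 0.86 (limma adjusted p = 0.00849), at least 1.64-fold, with net Cy5 of 9 to 80 in NOD and -0.5 to 10 in NOD.B10. The Cdt1 call was lost with slide as a fixed block (0.59, adjusted p = 0.112). Fork polymerases and clamp loading had 9 of 29 tested and 4 higher, among them Rfc2 and Rfc4, subunits of the loader that places PCNA on DNA. Rfc2 was higher by 0.57 (adjusted p = 0.00429; bright on all 6 NOD and 4 NOD.B10 arrays) and Rfc4, which had a larger p than the other 3 called genes of that list and is named after its value was seen, by 0.81 (0.0258; none in NOD.B10), a call lost without NOD 1, NOD 2, NOD 6 or NOD.B10 2 (0.00428 to 0.0601 over the 12 fits). Top1, which relaxes supercoils ahead of the fork, was higher by 0.54 (adjusted p = 0.0063) and the polymerase delta subunit Pold3 by 0.40 (0.0129). The tested Pold3 probe was bright on 4 NOD arrays and 0 NOD.B10 arrays, with net Cy5 of 3 to 18.5 in NOD. With no filter another Pold3 probe was taken, and its difference was -0.02 (0.932). With slide as a fixed block the Pold3 call (0.154) and the Rfc4 call (0.205) were lost. Primase, Ssrp1, Pole4, Rfc5 and Rfc1 had differences of 0.10 to 0.30 that did not pass.

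Of the 15 nucleotide supply genes, 9 were tested and none was called higher by limma, although 3 of them had an unadjusted p under 0.05 in that direction. The ribonucleotide reductase subunits Rrm1 (0.35, limma adjusted p = 0.0598) and Rrm2 (0.35, 0.111) and thymidylate synthase Tyms (0.44, 0.104) had positive differences that did not pass. Paics, a purine synthesis enzyme, was called lower (-0.41, limma adjusted p = 0.00628), but the sign turned with median centring (0.58), on the Cy5 channel by itself (0.05) and in the scanner's own ratio (0.41). Relative to the median of all genes, which shifted on those scales, Paics was 0.15, -0.04 and -0.06. Its net Cy5 was 17 to 109 in NOD and 9.5 to 22 in NOD.B10. Of the G1 to S genes, 5 of 19 were tested and 2 were higher: Rb1, the brake on E2F (0.74, adjusted p = 0.00537), and E2f2 (0.42, 0.0451). With slide as a fixed block neither passed (adjusted p = 0.104 for Rb1 and 0.322 for E2f2). The E2f2 call was lost in 9 of the 12 fits that each left out 1 array, all but those without NOD 3, NOD 4 or NOD 5 (adjusted p between 0.0143 and 0.0978), with no filter (0.0773), with the replicate block (0.1) and with slide as a random block (0.0503). Ccna2, the S phase cyclin, had a difference of -0.14 (0.469).

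Of the mitotic kinases, spindle and kinetochore genes, 8 of 31 were tested and 3 were higher, and none of the 8 was bright on a NOD.B10 array, a class in which 28.8% of all genes were called higher. These were Birc5 and Incenp, partners in the complex that corrects chromosome attachment, and Cenpa, the centromeric histone: Birc5 by 0.56 (at least 1.41-fold; limma adjusted p = 0.0255), Cenpa by 0.44 (at least 1.26-fold; 0.0217) and Incenp by 0.40 (at least 1.24-fold; 0.0147). The Birc5 call was lost without any 1 of NOD 1, NOD 2, NOD 6 and NOD.B10 1 to 3 (adjusted p between 0.00566 and 0.0575 over the 12 fits) and the Cenpa call without NOD.B10 3 (0.0507). With slide as a fixed block none of the 3 passed (0.182 for Birc5, 0.28 for Cenpa and 0.139 for Incenp). In the list of the anaphase promoting complex and chromatid separation, which CDC20 serves, 12 of 25 were tested, 3 were higher and 1 was lower. Pttg1, the securin that CDC20 marks for destruction, was higher by 0.45 and at least 1.28-fold (adjusted p = 0.0337), a call lost without any 1 of NOD 1, NOD 2, NOD 6, NOD.B10 1 and NOD.B10 4 to 6 (0.00959 to 0.0684 over the 12 fits), with no filter (0.0565), with the replicate block (0.0665) and with slide as a fixed block (0.103).

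Both other genes called higher in that list were bright on NOD.B10 arrays too. Top2b, the topoisomerase II that non-dividing cells also make, was higher by 1.55 ± 0.28 (SE; limma adjusted p = 0.00104), with net Cy5 of 78.5 to 454 in NOD and 12 to 43 in NOD.B10. Smc4, a condensin subunit, was higher by 1.51 ± 0.31 (adjusted p = 0.00254), with net Cy5 of 67.5 to 773 in NOD and 5 to 18 in NOD.B10. Anapc11, a subunit of the complex itself, was lower by the loess ratio (-0.47, limma adjusted p = 0.01) and in all 12 fits that each left out 1 array. It was also lower with Cy5 alone (-0.33, 0.0055) and with slide as a fixed block (-0.49, 0.0218), and by the scanner's ratio without passing (-0.63, 0.0785). Its sign turned only with median centring (0.62), where the median of all genes moved to 0.44 and 0 genes were called lower.

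**Figure D5:**
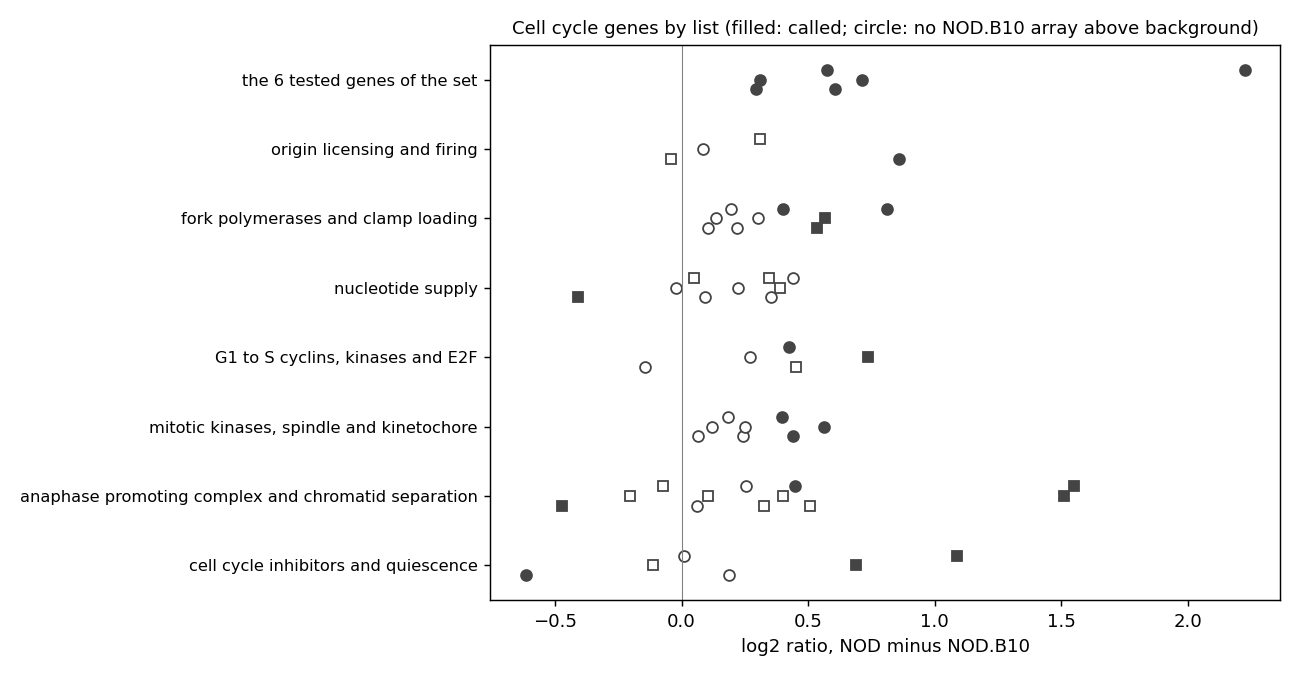
Log2 difference (NOD minus NOD.B10) of each tested gene of the set and of the 7 further cell cycle lists, one row per list, filled where called, with circles for genes bright on no NOD.B10 array and squares for the others. Mcm6 lies at 2.22, Top2b at 1.55 and Smc4 at 1.51.

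Mcm2, Mcm4, Mcm6 and Mcm7 were also averaged per array after each strain mean was taken off, and the 5 genes outside the set that followed this mean most closely over the 12 arrays were Mis18a (Pearson r = 0.936), Ccl19 (0.935), Nup88 (0.928), Smc1a (0.921) and Evi2a (0.915). These values are descriptions and share the arrays and the reference. Ccl19, a chemokine that draws lymphocytes, was itself higher in NOD by 3.24 (limma adjusted p = 3.98e-05) and Evi2a, one of the 14 leukocyte genes, by 1.13 (0.00343). Mis18a, which prepares centromeres for Cenpa (0.38, adjusted p = 0.101), Nup88, a nuclear pore protein (0.12, 0.706), and Smc1a, a cohesin subunit (0.33, 0.186), did not pass.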

How the data were processed

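Each of the 12 deposited scanner files held 1 two-colour array. Per the file headers, the scans were read by Feature Extraction, version 10.5.1.1, and its median spot signals and median local backgrounds in both channels were used as intensity values. The authors' deposited log10 ratio per spot and the deposited series table, whose values equalled the log2 of that processed ratio within 0.001 for 100% of 491148 values, served as alternatives. The array design's genome build and any step before scanning other than those in the labels are not given in the sources used here.

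Here intensities were background corrected (normexp, offset 50) and loess normalised within arrays in limma 3.58.1 (R 4.3.3), with control and outlier spots given no weight. Spots of a probe were averaged, and symbols came from RefSeq accessions (24375 of 41174 probes had one). A probe was tested if the scanner marked its Cy5 spot as above background on 4 or more of the 12 arrays, and each gene was taken from its probe with the highest mean Cy5. Strains were compared by lmFit and eBayes over all 3920 genes, with Benjamini-Hochberg adjustment. Array measures and correlations were tested by exact permutation. The strain fit and the exact tests were tried on simulated log ratios, and the steps before them were not. Samples were grouped by strain label, and nothing in the labels beyond the sample numbers says that the 6 of a strain are separate animals, so p-values measure the spread between these samples. Their number limits the precision.

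The genes named are the members, up to 3 genes per direction with the smallest p from each further list, the list means, Ptprc and the 5 genes most like the MCM mean. Other genes, among them Rfc4 and those of the further lists that did not pass, were named after their values were seen. The members and lists were chosen with earlier results of these data known.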

Additional observations from a re-analysis of the deposited data

How the results depend on the processing

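Of the 6 members called higher, 6 were called with the scanner's ratio, the series table, no background correction, no filter, probe means, slide as a random block and array weights, 5 with median centring (Mcm2 lost) or Cy5 alone (Mcm2 lost), and 4 of 4 tested with a filter of 6 arrays. Without slide 4 there were 4. Slide as a fixed block left 3, dropping slides 1 and 4 left 2 (Mcm4 and Mcm6), slide 2 alone gave 1 and slide 3 alone 0. Leaving out single arrays gave 4 to 6, with Mcm4, Mcm6, Mcm7 and Cdc20 called in all 12 fits. With the replicate block 4 were called (Mcm2 and Pcna lost); the numbers do not pair the samples (correlations of deviations -0.148 to 0.21; 2 of 6 NOD arrays correlated best with their own number). Over all 10 probes, 6 were called, 3 with median centring, 2 with slide as a fixed block and 5 with the scanner's ratio.

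With the share of bright spots as a covariate 0 members were called. The differences were -0.0737 for Mcm2, -0.24 for Mcm7 and -0.22 for Cdc20, and 0.48 for Mcm6, 0.09 for Pcna and 0.06 for Mcm4. With the leukocyte signal as a covariate 0 were called. The differences were -0.12 for Mcm2, -0.49 for Mcm7, -0.0780 for Pcna and -0.13 for Cdc20, and 0.15 for Mcm6 and 0.11 for Mcm4. By limma, 3 genes of the whole table were higher with the share of bright spots (298 at an unadjusted p under 0.05) and 4 with leukocyte signal (327), none lower. The cause was not tested. Of the relations to leukocyte signal, 0 passed, 3 with median centring (Mcm4, Mcm6 and Mcm7), 1 with Cy5 alone (Mcm7) and 3 with the macrophage list chosen after seeing the data (Mcm2, Mcm6 and Mcm7); the others gave 0. Of all genes, 738 were higher and 705 lower, against 1978 and 0 with median centring, 1097 and 314 with the scanner's ratio, 864 and 266 with Cy5 alone, 702 and 1440 with no filter, 364 and 349 with slide as a fixed block, 302 and 265 without slides 1 and 4, 43 and 47 within slide 2, and 1 and 1 within slide 3. The median of all genes moved to 0.44 with median centring and to 0.48 with the scanner's ratio. Relative to it, with median centring, Mcm2 was -0.07, Pcna 0.07, Cdc20 0.38, Mcm4 0.47, Mcm7 0.60 and Mcm6 1.70. Of the 53 genes of the further lists, 38 were higher with median centring, 27 with Cy5 alone, 32 with the scanner's ratio and 4 with slide as a fixed block. With the share of bright spots or the leukocyte signal as a covariate 0 of the 53 were called. No member was well above background on all 12 arrays, so that filter and the net ratio gave no value. Islet signal over background sets the limit for Mcm2, Mcm3, Mcm5 and Top2a.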

Other observations

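Genes that hold cells out of the cycle were also measured. Of 16 inhibitor and quiescence genes, 6 were tested, 2 were higher in NOD, 1 was lower and 3 did not pass, with a median log2 difference of 0.10. Btg1, an antiproliferative gene abundant in resting lymphocytes, had a net Cy5 of 58.5 to 314 in NOD and 12 to 23 in NOD.B10, and its difference was 1.09 (limma adjusted p = 0.00188; bright on 6 NOD and 5 NOD.B10 arrays). Btg2, its relative, had a net Cy5 of 12 to 177 in NOD and 7 to 18 in NOD.B10 and was higher by 0.69 (adjusted p = 0.029), a call that was lost in the scanner's ratio, on the Cy5 channel by itself and without any 1 of NOD 2, NOD 4, NOD 6, NOD.B10 2, NOD.B10 3 and NOD.B10 5 (0.000482 to 0.0621 over the 12 fits). With slide as a fixed block the Btg2 call was lost as well (adjusted p = 0.258). Ccng1, a target of p53, was called lower by the loess ratio (-0.61, limma adjusted p = 0.00174), but its sign turned with median centring (0.21), Cy5 alone (0.10) and the scanner's ratio (0.89). Relative to the median of all genes on those scales, Ccng1 was -0.22, 0.01 and 0.41. Its net Cy5 was 10.5 to 22.5 in NOD and 1 to 9 in NOD.B10, and divided by array brightness it averaged 0.136 in NOD (SD 0.0252), against 0.127 in NOD.B10 (SD 0.0919, n = 6 each).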
